A study of Mus musculus with 12 samples.

Results

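This comparison set male (XY) against female (XX) mouse gonads at embryonic day 11.5 where both sexes lacked a working Kdm3a gene. It used 6 of the 12 arrays of the series, 3 mutant males and 3 mutant females, taken by their labels for sex and genotype and by no measured value. The mutants were homozygous for a mutant allele of Jmjd1a, an older name of Kdm3a, and the 3 control males and 3 control females were heterozygous, so every embryo carried that allele. All embryos also carried a transgene that puts the surface protein CD271 under Nr5a1 control, and CD271-bearing cells were pulled with magnetic beads from trypsinised gonads still attached to the mesonephros. Nr5a1 is active in gonadal somatic cells and also in the adrenal primordium. Each label names a single embryo, and which embryos were littermates is not stated there, so the p-values measure only the spread between these embryos. RNA was linearly amplified, labelled with Cy3 and hybridised to 1-colour Agilent arrays.

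In XY gonads the Y-linked gene Sry switches on Sox9, a transcription factor that drives supporting cells to become Sertoli cells. Fgf9, a secreted growth factor, and prostaglandin D2, made by Ptgds, help keep Sox9 on, while Wnt4, Rspo1 and beta-catenin signalling direct the ovary. Kdm3a removes methyl groups from lysine 9 of histone H3, a mark of silent chromatin, and mice without it are known for XY sex reversal. The question asked of the autosomal genes was which parts of the testis programme differed between the sexes when Kdm3a was missing.

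Levels are log2 signals relative to the 75th percentile of the array, so 0 is the level of a fairly bright probe. The 75th percentile was between 175.3 and 299.5 intensity units on the mutant arrays, and 61.3% to 65.2% of spots were well above background, Agilent's flag for a spot clearly brighter than its surroundings. Kdm3a was at 1.04, 0.99 and 0.70 in mutant males and 0.68, 0.75 and 0.43 in mutant females. These values lay below every control array, which were between 2.70 and 3.02. A second, dimmer Kdm3a probe was well above background on no mutant array and on all control arrays. Its mean level in controls was -2.8 in males and -2.6 in females. Mutant males had Xist at a level at least 890-fold below that of mutant females and the Y-linked Ddx3y at least 89.7-fold above it, so sex and genotype matched the labels. All 6 listed markers of gonadal somatic cells, among them Wt1 and Gata4, were well above background on all 12 arrays. The 12 arrays lay on 3 slides. Mutant male 1 shared a slide with the control males, mutant males 2 and 3 shared one with control females 1 and 2, and the mutant females shared one with control female 3. No slide held both mutant sexes, so slide and sex can be separated only through the control arrays.

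Among 12727 autosomal features tested, 6 passed an adjusted p of 0.05 between the mutant sexes (0.0471%), 3 higher and 3 lower in males (0.0236% each), by limma with Benjamini-Hochberg adjustment. They were Cd99, Adcyap1r1, Kcnc1, Olfr1153 and 2 transcripts known only by an accession or a clone name. None was a member of the testis lists described here. A further view without adjustment gave 1397 features at p under 0.05 (11%), of which 887 were higher in males (6.97%) and 510 lower (4.01%). The 3 males and 3 females did not overlap at 3102 features (24.4%), with males above at 15.2% and below at 9.16%. The difference was above 0 at 53.9% of features. In controls the same fit called 12 of 12385 autosomal features (0.0969%), 8 higher (0.0646%) and 4 lower (0.0323%) in males. The mutant count was small and moved with the settings. It was 0 with only the mutant arrays fitted, with slide as a random block, with array brightness as a covariate, or where both sexes had to be well above background, and 81 with array weights. The count was 2, 3 and 3 without mutant male 1, 2 or 3, and 1, 3 and 0 without mutant female 1, 2 or 3. With slide as a fixed block it was 1, a feature outside the 6.

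Cd99, which encodes a cell-surface glycoprotein whose human counterpart lies in the pseudoautosomal region, was higher in mutant males. Its level was 3.04, 3.30 and 3.16 in mutant males and 2.45, 2.47 and 2.38 in mutant females. Every male lay above every female. The difference was 0.73 ± 0.11 (SE, n = 3 a sex; 95% interval 0.49 to 0.97), or 1.66-fold, with an adjusted p of 0.0354 by limma. In controls it was 3.06, 2.96 and 3.08 in males and 2.51, 2.41 and 2.31 in females, a difference of 0.62 (adjusted p = 0.0592). The mutant difference was larger than that of controls by 0.11, with a 95% interval of -0.23 to 0.44. A second Cd99 probe gave 0.33 in mutants (adjusted p = 0.329).

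Adcyap1r1, the receptor of the neuropeptide PACAP, was lower in mutant males. Its level was -0.98, -0.56 and -0.74 in mutant males and 0.56, 0.15 and 0.79 in mutant females. The sexes did not overlap. The difference was -1.26 ± 0.18 (SE, n = 3 a sex; 95% interval -1.66 to -0.85), which is 2.39-fold (adjusted p = 0.0354, limma). Control males were at 0.20, -0.01 and -0.19 and control females at 1.37, 1.04 and 1.26, a difference of -1.23 (adjusted p = 0.0294). Each mutant sex lay below the same sex of controls, and the sex difference of mutants minus that of controls was -0.03 (95% interval -0.61 to 0.54). A second, dimmer probe gave -0.72 in mutants (unadjusted p = 0.0747, limma) and 0.03 in controls.

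Kcnc1, a voltage-gated potassium channel subunit, was not well above background on any mutant male array and was at -2.49, -2.98 and -2.59 in mutant females. It was at least 4.38-fold lower in mutant males (adjusted p = 0.0105, limma), where the bound sets the female mean against the lowest signal that counts as well above background, or the probe's own where that is higher. Control males were also lower, by 1.89 on the log2 scale (adjusted p = 0.114). The other 2 Kcnc1 probes were above background on no mutant array and give no second reading. Kcnc1 passed the filter on dim probes only through the females, where it is high. Olfr1153, an odorant receptor gene from a family whose members resemble each other in sequence, was likewise below background in mutant males and at -3.25, -3.44 and -3.45 in mutant females. It was at least 2.26-fold lower in mutant males (adjusted p = 0.0105), and the control difference was -0.87 (adjusted p = 0.0671). It too passed the filter only through the females. Neither gene is tested where both sexes must be well above background, so their adjusted p-values are given as a description.

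The remaining pair, AY036118 and 4933432I09Rik, are named here after their values were seen. AY036118 was at 0.52, 0.36 and 0.41 in mutant males and -0.90, -0.76 and -0.52 in mutant females, a difference of 1.16 ± 0.18 (adjusted p = 0.0383, limma). 4933432I09Rik was at -3.88, -3.76 and -3.94 against -4.66, -4.57 and -4.68, a difference of 0.78 ± 0.12 (adjusted p = 0.0434). Neither transcript overlapped between the sexes. All 6 called features had the same direction in controls with an unadjusted p under 0.05, and Adcyap1r1 and 4933432I09Rik were called there too. The spread of each feature is pooled over all 4 groups, so a feature called for a small spread keeps it in controls. In mutants, Kcnc1 and Olfr1153 passed the filter on dim probes only through the females, where they are high. The count and these control p-values are therefore given as a description and support nothing by themselves. The median size of the 6 was 1.2 in mutants, where they were selected, and 0.943 in controls. The mutant values are therefore the ones raised by selection. The calls of AY036118, 4933432I09Rik and Cd99 were lost whichever mutant array was left out, that of Adcyap1r1 held only without mutant female 2, and those of Olfr1153 and Kcnc1 were lost without mutant female 1 or 3.

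**Figure D1:**
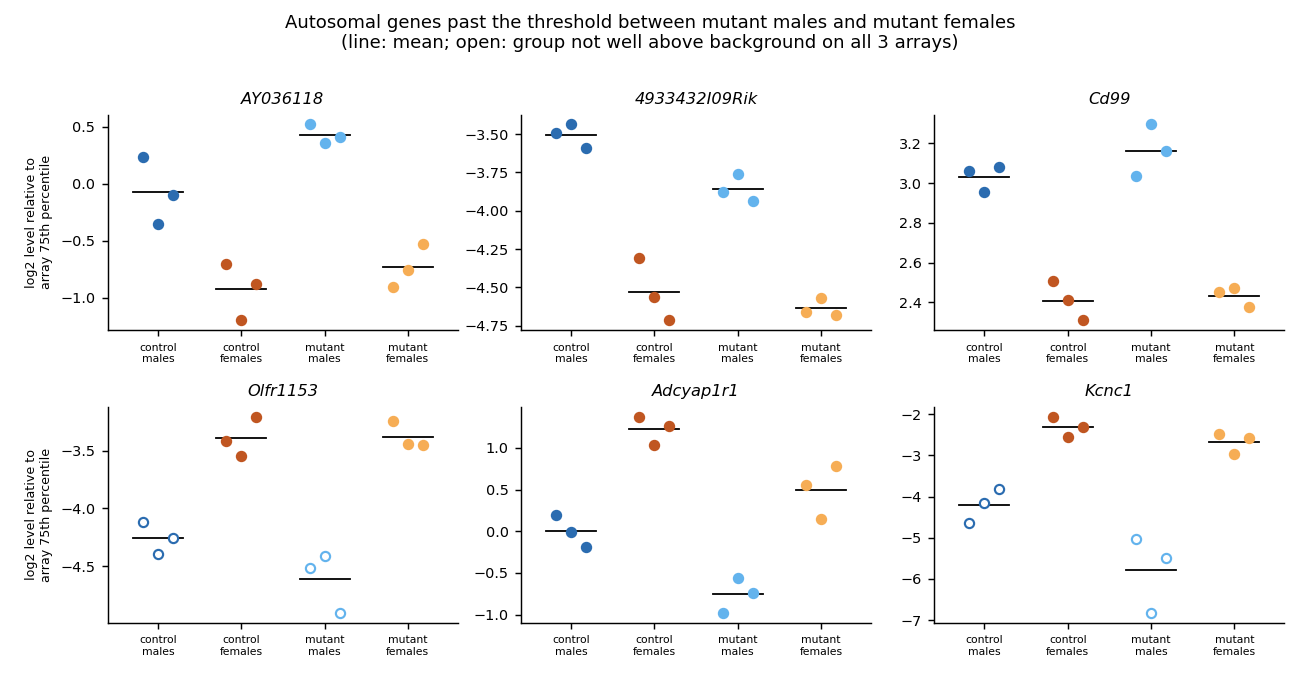
Log2 level relative to the array's 75th percentile for each of the 6 autosomal features called between mutant males and mutant females, 1 point an array for the 4 groups. Mutant male and mutant female points do not overlap for any of the 6, as with Cd99 at 3.04 to 3.30 against 2.38 to 2.47, and open symbols mark groups not well above background on all 3 arrays.

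Of 10 genes listed for commitment to the testis, 6 could be tested in mutants, 3 were higher and 3 lower in males, and none was called by limma, nor had any an unadjusted p under 0.05. Their median was 0.04. It was -0.01 with normexp background correction, 0.25 with slide as a fixed block, 0.23 with array brightness as a covariate and 0.13 with array weights. Sry, the Y-linked trigger, was not well above background on any mutant array. Its signal was -5.44, -5.09 and -5.27 in mutant males and -7.43, -7.58 and -7.50 in mutant females, while control males were at -2.94, -3.40 and -3.80, all well above background. The mutant male values lay above those of the females, but neither sex was above background, so no fold is given.

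Sox9, which separated the control sexes, overlapped between the mutant sexes. It was at -0.68, -1.03 and -0.23 in mutant males and -0.51, -0.54 and -0.62 in mutant females. The female values lay inside the male range. The difference was -0.09 ± 0.18 (SE, n = 3 a sex; 95% interval -0.50 to 0.32; adjusted p = 0.841, limma), and the upper bound lies below the control difference of 1.37 ± 0.18 (adjusted p = 0.0145). Control males were at 0.25, 0.60 and 0.36 and control females at -0.80, -1.04 and -1.05, with no overlap. The sex difference in mutants was smaller than in controls by 1.46 ± 0.26 on the log2 scale (unadjusted p = 0.00017, adjusted p = 0.823 over all features). The control call of Sox9 was lost with slide as a fixed block (1.38, adjusted p = 0.646, limma), slide as a random block (0.115), brightness (0.0637) and the replicate block (0.0575), and when control female 2 (adjusted p = 0.094), the third control female (0.0819) or the second control male (0.0867) was left out. The other 2 Sox9 probes gave -0.11 and 0.42 in mutants and 1.77 and 1.73 in controls.

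Fgf9 overlapped between the mutant sexes too. Mutant males were at -2.26, -1.91 and -1.63 and mutant females at -1.98, -2.14 and -2.09, so the female values again lay inside the male range. The difference was 0.14 ± 0.16 (95% interval -0.22 to 0.49; adjusted p = 0.708, limma). In controls males were at -0.87, -0.68 and -0.84 and females at -2.29, -1.97 and -2.23, and the difference of 1.36 was called (adjusted p = 0.00536), though not with slide as a fixed block (1.82, adjusted p = 0.0553). The mutant sex difference was smaller by 1.23 (unadjusted p = 0.000213, adjusted p = 0.823). A second, dimmer Fgf9 probe gave 0.50 in mutants (unadjusted p = 0.0338, adjusted p = 0.367).

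For Ptgds, which makes prostaglandin D2, mutant males were at -3.60, -1.94 and -2.06 and mutant females at -3.68, -2.98 and -3.31, so males 2 and 3 lay above all females and male 1 among them. The difference was 0.79 ± 0.41 (95% interval -0.11 to 1.69; adjusted p = 0.466, limma), against 1.43 ± 0.41 in controls. The mutant minus the control difference was -0.64 (95% interval -1.92 to 0.63). Without mutant male 1 the mutant sex difference of Ptgds was 1.32 (adjusted p = 0.245, limma). Sox10, a relative of Sox9, differed by 0.83 ± 0.54 in mutants and 0.80 in controls, and in mutants by 0.13 without mutant female 2. Fgfr2, a receptor for Fgf9, differed by -0.05 ± 0.14 (0.29 with the slide block, and 0.09 and 0.31 by other probes), and Dmrt1, a transcription factor of the later testis, by -0.12 ± 0.33. Sox8, Hpgds and Ptgdr were too dim to be tested.

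**Figure D2:**
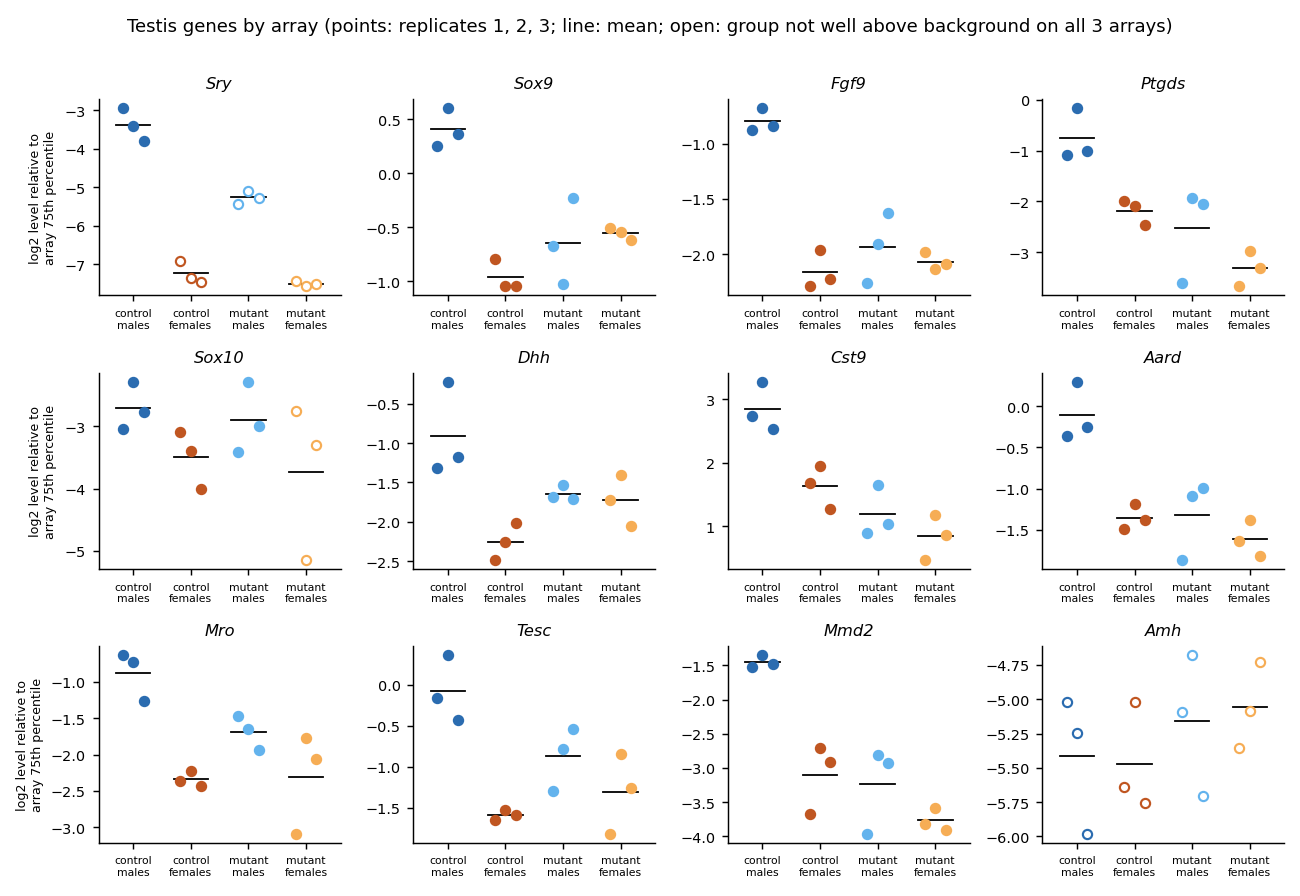
Log2 level relative to the array's 75th percentile for testis commitment and Sertoli genes, 1 point an array for control males, control females, mutant males and mutant females, with group means. Sox9 and Fgf9 separate the control sexes, at 0.25 to 0.60 against -1.05 to -0.80 for Sox9, while the mutant sexes overlap.

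Of 18 Sertoli effector genes listed, 13 passed the filter on dim probes, and 9 were higher and 4 lower in mutant males, with a median difference of 0.08 beside 0.03 over all autosomal features. None was called by limma, and 1 had an unadjusted p under 0.05, against 11% of autosomal features. The median was 0.38 with slide as a fixed block, 0.27 with array weights and 0.19 with brightness. In controls it was 0.76.

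Dhh, the hedgehog ligand of Sertoli cells, was at -1.69, -1.53 and -1.71 in mutant males and -1.72, -1.40 and -2.06 in mutant females. The males lay inside the female range. The difference was 0.08 ± 0.27 (adjusted p = 0.904, limma) against 1.35 in controls, and the sex difference was smaller in mutants by 1.27 (unadjusted p = 0.00677, adjusted p = 1). Cst8, which encodes a protease inhibitor of the cystatin family, was the 1 member with an unadjusted p under 0.05. It was at 2.24, 2.89 and 2.46 in mutant males and 1.66, 2.12 and 2.13 in mutant females, with no overlap, a difference of 0.56 ± 0.23 (unadjusted p = 0.0309, adjusted p = 0.404). With the slide block the mutant difference was 0.11. Its control difference was 0.30, and there the sexes overlapped.

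For Mmd2, a membrane protein gene of the early testis, mutant male 1 at -3.96 lay below the 3 mutant females, at -3.83, -3.58 and -3.90, while males 2 and 3, at -2.81 and -2.93, lay above them. The difference was 0.54 ± 0.30, and 0.90 without mutant male 1 (adjusted p = 0.322, limma), against 1.65 in controls. Mro, which encodes a nucleolar protein, was at -1.47, -1.65 and -1.93 against -3.09, -1.77 and -2.06, where mutant female 1 was the lowest value, and differed by 0.62 ± 0.30 (adjusted p = 0.448), or 0.23 without that female. Tesc, a calcium-binding protein gene, was at -1.29, -0.79 and -0.54 against -1.82, -0.84 and -1.26, a difference of 0.43 ± 0.28, or 0.18 without mutant female 1. Males 2 and 3 again held the upper values. Cst9, another cystatin, differed by 0.36 ± 0.28 and Aard by 0.30 ± 0.24, against 1.21 and 1.25 in controls, and with the slide block Cst9 was at -0.03 and Aard at 0.53.

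Cyp26b1, which degrades retinoic acid and so keeps germ cells from entering meiosis, was at 1.98, 1.50 and 1.82 in mutant males and 1.82, 2.60 and 1.93 in mutant females, a difference of -0.35 ± 0.26 that turned to 0.32 with the slide block. Inhbb, the activin and inhibin beta-B subunit, differed by 0.01, the pantetheinase gene Vnn1 by 0.02 and the protease inhibitor gene Serpine2 by -0.14, which became 0.76, -0.17 and 0.35 with the slide block. A second Inhbb probe gave 0.44. Pdgfa, a growth factor gene, differed by -0.18, and its males lay below all females in mutants and in controls, but a second probe gave 0.01 and the slide block -0.03. Cbln4, which encodes a secreted cerebellin, differed by -0.52, or 0.44 with the slide block, and was dim. Amh, the Sertoli hormone that regresses the Müllerian duct, was above background on no mutant male array and on 2 of 3 mutant female arrays, and was not tested. Col9a3, Hsd17b1, Hsd17b3 and Gdnf were not tested for the same reason.

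The commitment and Sertoli lists together had 19 autosomal members tested in mutants. Of these 12 were higher and 7 lower in males, between -0.52 and 0.83, with a median of 0.08. In controls 15 of 18 were higher. In controls 10 of them were higher in males without overlap, as were 10.9% of autosomal features, namely Sox9, Fgf9, Sox10, Ptgds, Dhh, Cst9, Aard, Mro, Tesc and Mmd2. In mutants 9 of these 10, all but Sox9, had a difference above 0, with a median of 0.40 against 1.37 in controls, but none was without overlap and none reached an unadjusted p of 0.05 by limma. The same selection over all autosomal features gave 1336 features, of which 86.2% had the same sign in mutants and 40% did not overlap. The median of those 1336 was 0.29 in controls and 0.18 in mutants. The control medians come from the arrays used for the selection and are raised by it. The genotypes share no arrays, but in both of them no slide held both sexes, so slide moved with sex in each.

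The 3 mutant males differed in these 10 genes. Mutant male 1 was on another slide than males 2 and 3, so differences between these males cannot be told apart from slide. Mutant male 1 lay above all 3 mutant females for 1 gene and below all of them for 4. Mutant male 2 lay above for 8 and below for 1, and mutant male 3 above for 6 and below for none. Over all autosomal features the shares above all females were 30.7%, 39.8% and 28.2% for males 1, 2 and 3, and the shares below 22.9%, 36.6% and 19.4%. Leaving out mutant male 1 took 4 of the 10 to an unadjusted p under 0.05, with adjusted p-values from 0.245 to 0.876 (limma). Mutant male 1 held low values for these same genes, so that count supports nothing by itself. With all arrays kept, 11% of autosomal features reached that p. Leaving out mutant male 2 gave none and a largest difference of 0.605. The count was 0 without mutant male 3, and 1, 2 and 0 without mutant female 1, 2 or 3. With slide as a fixed block 8 of the 10 were above 0, between -0.20 and 1.19, with adjusted p-values from 0.827 to 0.99.

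**Figure D3:**
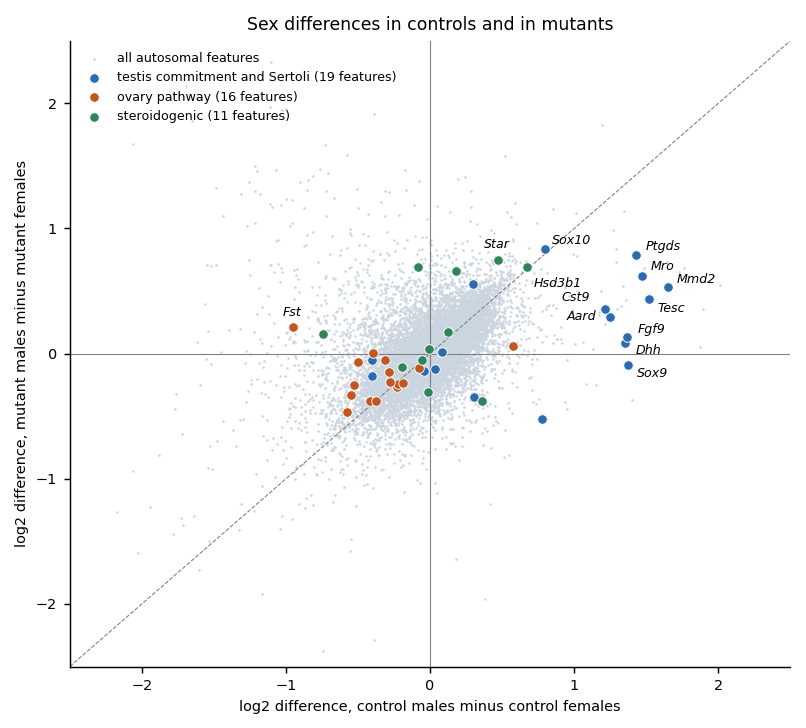
Male minus female log2 difference in mutants against that in controls for the 12727 autosomal features tested in mutants (11 lie outside the axes). The testis, ovary pathway and steroidogenic lists are coloured, and some of their genes are labelled. Fgf9, Sox9 and Dhh lie near 0 on the mutant axis (0.14, -0.09 and 0.08) and above 1 on the control axis. Cd99 and Adcyap1r1, which are not marked, have similar values on both.

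The autosomal genes called between the control sexes were chosen by a difference between other arrays. The spread of each is pooled over all 4 groups, so a gene called for a small spread keeps it in mutants. The mutant p-values of these genes are therefore given as a description. Of these 12, 11 had the same direction in mutants, 8 of them with an unadjusted p under 0.05 and 2 called by limma. Over all autosomal features, 11% had an unadjusted p under 0.05 in mutants and 0.0471% were called, in either direction. Their median difference, taken in the direction of the control call, was 1.37 in controls, where they were selected, and 0.543 in mutants, and for 9 the difference between genotypes had an unadjusted p under 0.05, beside 3.51% of autosomal features. That count uses the control arrays on which the genes were selected and supports nothing by itself. Sox9 was the 1 gene with the opposite sign.

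Rnase1, a secreted ribonuclease, had the largest control difference of the 12, at 3.71. Mutant males were at -4.05, -2.93 and -2.76 and mutant females at -4.44, -3.98 and -3.88, so male 1 lay inside the female range. The mutant difference was 0.85 ± 0.35 (95% interval 0.08 to 1.63; adjusted p = 0.408, limma). It was smaller than in controls by 2.86 (unadjusted p = 0.000131, adjusted p = 0.823). Gstm6, a glutathione transferase, was at -1.41, -1.32 and -1.50 against -1.90, -1.64 and -1.76, a step of 0.36 ± 0.14 without overlap (adjusted p = 0.403) beside 1.30 in controls. Jaml, a junctional adhesion molecule, differed by 0.36 ± 0.31 beside 1.90, the lipid droplet gene Cidea by 0.66 ± 0.28 beside 1.73, and Tent5b, a poly(A) polymerase gene, by 0.43 ± 0.22 beside 1.36. With the slide block Jaml turned to -0.16, Gstm6 went to 0.17, Cidea to 1.18 and Tent5b to 0.97.

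The 4 called genes that were lower in control males were Adcyap1r1, Trim55, Lalba and Cpne5, and for all 4 the mutant males lay below the mutant females without overlap. In mutants, males lay below females without overlap at 9.16% of autosomal features. That share was 26.3% among autosomal features lower in control males without overlap. Trim55, a ring-finger protein gene known from muscle, was at -2.26, -1.96 and -2.60 in mutant males and -0.69, -1.27 and -0.54 in mutant females. The difference was -1.44 ± 0.25 (95% interval -1.99 to -0.89), or 2.71-fold, with an adjusted p of 0.078 by limma, against -1.79 in controls. Lalba, the milk protein alpha-lactalbumin, was at -2.09, -1.78 and -1.47 against -1.18, -0.51 and -0.83, a difference of -0.94 ± 0.30 (adjusted p = 0.35), beside -2.06 in controls. Cpne5, a calcium-dependent membrane-binding protein gene, differed by -0.43 ± 0.14 beside -0.90. With slide as a fixed block Lalba was at 0.06, so its direction was lost, while Trim55 was at -1.78 and Cpne5 at -0.42. Of the 8 genes higher in control males, Gstm6 and 4933432I09Rik did not overlap in mutants. Mutant males lay above without overlap at 15.2% of autosomal features and at 40% of those higher in control males without overlap.

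**Figure D4:**
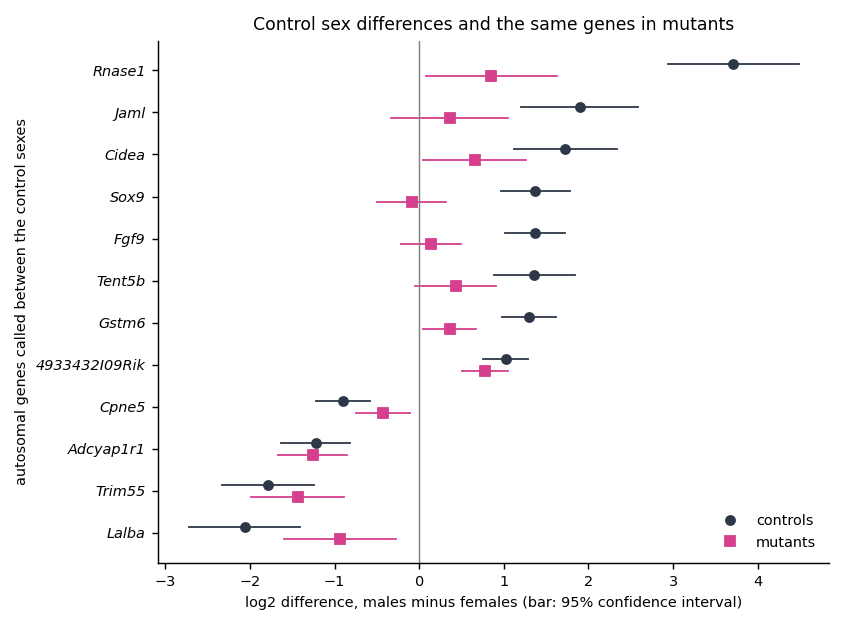
Male minus female log2 difference for the autosomal genes called between the control sexes, with 95% intervals, in controls and in mutants. Rnase1 is at 3.71 in controls and 0.85 in mutants, and Adcyap1r1 at -1.23 and -1.26.

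The sex difference itself was compared between genotypes over 12799 autosomal features. None was called by limma (0%), and 449 (3.51%) had an unadjusted p under 0.05. The smaller differences of Sox9, Fgf9, Dhh and Rnase1 in mutants therefore did not pass adjustment over all features.

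Steroid pathway genes, active in fetal adrenal cells and later in Leydig cells, gave 11 tested of 15 listed. In mutant males 7 were higher and 4 lower, with a median of 0.16 and a range of -0.38 to 0.75. The median was 0.51 with slide as a fixed block, 0.39 with brightness and 0.05 with normexp. None was called by limma, and 3 had an unadjusted p under 0.05, beside 11% of autosomal features. Cyp21a1 and Lhcgr were too dim, and Cyp11b1 and Insl3 had no named probe here. Star, which carries cholesterol into mitochondria, was at -0.54, -0.24 and -0.40 in mutant males and -1.19, -1.08 and -1.15 in mutant females, with no overlap. The difference was 0.75 ± 0.15 (95% interval 0.42 to 1.07), or 1.68-fold (adjusted p = 0.154, limma), beside 0.47 in controls, and a second probe gave 0.51. Hsd3b1, a steroid dehydrogenase, was at 0.41, 1.05 and 0.79 against -0.00, -0.08 and 0.25, a difference of 0.69 ± 0.22 without overlap (adjusted p = 0.347), beside 0.67 in controls. Mrap, which helps the corticotropin receptor to the cell surface, differed by 0.69 ± 0.29 (adjusted p = 0.418), while that receptor, Mc2r, differed by -0.38. The side-chain cleavage enzyme Cyp11a1 differed by -0.05 and Cyp17a1 by 0.16.

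Of 19 genes that act upstream of Sry, 18 were tested, 5 were higher and 13 lower in mutant males, and the median was -0.24, which turned to 0.26 with slide as a fixed block and to 0.06 with array brightness as a covariate. None was called by limma, and the values ran from -0.55 to 0.25. Tcf21, a transcription factor of gonadal mesenchyme, was at 3.10, 2.93 and 3.04 in mutant males and 2.75, 2.80 and 2.77 in mutant females, a difference of 0.25 ± 0.10 (unadjusted p = 0.0275). Gata4 differed by 0.04, its partner Zfpm2 by 0.13, Wt1 by -0.33, Nr5a1 by -0.31, the polycomb gene Cbx2 by -0.39 and the kinase Map3k4 by -0.24. Second probes went the other way, Cbx2 at 0.31 and Map3k4 at 0.44 (unadjusted p = 0.0305, limma). No direction is drawn for this list.

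The hedgehog list, which reads the signal that Dhh starts, had 6 of 7 members tested, 2 higher and 4 lower in mutant males, and a median of -0.27 that turned to 0.09 with the slide block and to 0.08 with brightness. None was called by limma. Gli3, a hedgehog-controlled transcription factor, was at 1.73, 1.49 and 1.70 in mutant males and 2.06, 2.09 and 2.04 in mutant females, a difference of -0.42 ± 0.16 without overlap (unadjusted p = 0.0216). A second, dimmer Gli3 probe gave -0.16, with overlap (unadjusted p = 0.455, limma). Over the alternative settings with all mutant arrays kept, the Gli3 difference ran from -0.47 to 0.07. The activator gene Gli1 differed by -0.75 ± 0.30 and Gli2 by -0.92 ± 0.41, but a second Gli2 probe gave 0.42. The receptor Ptch1, a direct target, differed by 0.05 and the signal transducer Smo by 0.06.

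Genes of the ovarian pathway were not called either. Of 20 listed, 16 were tested, 3 higher and 13 lower in mutant males, with a median of -0.23, which became 0.34 with the slide block (15 higher, 1 lower) and 0.11 with brightness. In controls the median was -0.34. Without mutant female 2 the mutant median was -0.04, so no direction is drawn. Wnt4, the ligand that directs the ovary, differed by -0.24 ± 0.23, its amplifier Rspo1 by -0.05 and the target Lef1 by -0.33. Fst, an activin antagonist of the early ovary, was at -0.68, 0.37 and 0.59 in mutant males and -0.40, 0.55 and -0.51 in mutant females, which overlapped widely. It differed by 0.21 ± 0.34 in mutants and by -0.95 in controls (unadjusted p for the difference between genotypes = 0.0359, adjusted p = 1, limma). Msx2, a homeobox gene, differed by -0.47 and Znrf3, which removes Wnt receptors, by -0.38. Foxl2, Axin2, Irx3 and Irx5 were too dim to be tested.

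Markers of other cells moved between arrays beside these results, and in bulk RNA fewer cells of a type and less RNA per cell cannot be told apart. Summed linear levels of the gonadal somatic markers were 91.1 to 121 in mutant males and 98.8 to 156 in mutant females. Mesonephric epithelial markers were 50.1 to 65.9 in males and 40.4 to 49.9 in females, with 10 of 11 higher in males, a median difference of 0.46 beside -0.57 in controls, and Krt8 at 0.46 (unadjusted p = 0.00291, limma; 0.17 by a second probe). Germ cell markers were 1.12 to 1.56 against 0.881 to 1.1, with 5 of 6 higher and Ddx4, a germ cell helicase gene, 1.12 higher in mutants and 1.01 in controls. Dazl and Prdm1 were below background. The mesonephric median was 0.09 with normexp, 0.17 with array weights and 0.49 with slide as a fixed block. The germ cell median of 0.40 became 0.02 with brightness, 0.08 with normexp, 0.16 with array weights and 0.55 with the slide block. The mesonephric and germ cell sums did not overlap between the mutant sexes, and their part in the steroid and testis results was not tested.

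Mesenchymal markers summed to 149 to 195 in males and 175 to 199 in females, endothelial ones to 4.69 to 9.83 against 4.33 to 7.93, neural ones to 1.18 to 1.5 against 0.801 to 1.36 and leukocyte ones to 1.21 to 2.61 against 0.482 to 1.99, all overlapping. Globin and other erythroid genes ran from 25.4 to 295 in males and 23.7 to 441 in females, low in mutant male 1 and mutant female 2. Mutant male 1, which of the males had the lowest erythroid and endothelial markers, was also the male that lay below all females for 4 of the 10 testis genes. Immediate-early genes, which respond to cell handling, summed to 22.5 to 69.5 in males and 43.2 to 115 in females and were lowest in mutant male 2, the male that lay above all females for 8 of the 10. Of their 14 members 13 were lower in mutant males, with a median of -0.735, beside 53.9% of autosomal features above 0. In controls all 14 were lower in males, with a median of -0.89. The mutant median was -0.09 with array weights, -0.20 with brightness and -1.45 with slide as a fixed block. The part of these differences in the results was not tested.

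**Figure D5:**
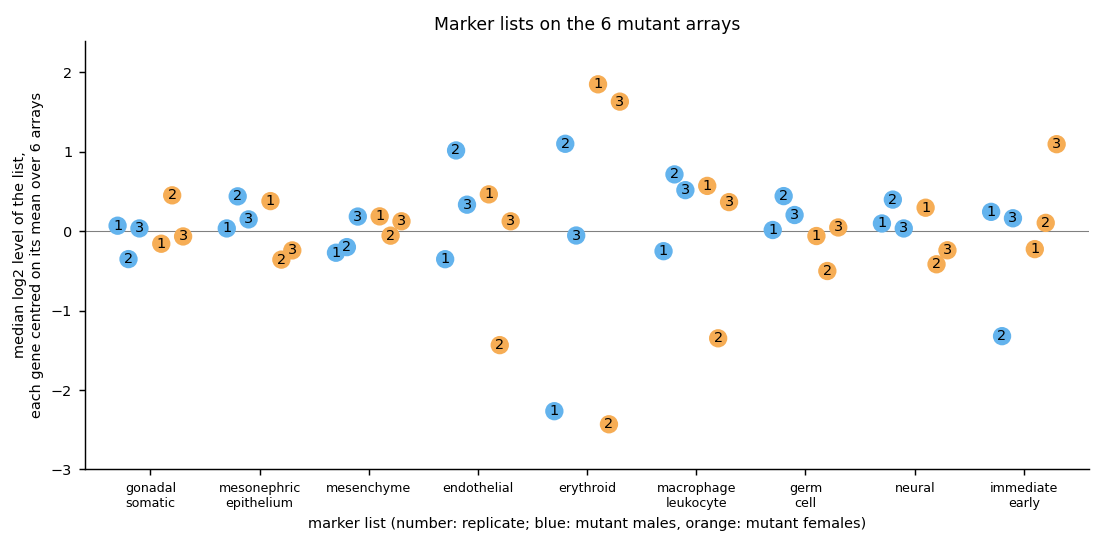
Median log2 level of each marker list on each mutant array, with each gene centred on its mean over the 6 mutant arrays. The erythroid list is low in mutant male 1 (-2.27) and mutant female 2 (-2.43), and the immediate-early list lowest in mutant male 2 (-1.32).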

How the data were processed

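The deposited files are scanner output of 12 arrays, made by the authors with Agilent Feature Extraction, per the file headers, and hold intensity values per spot, already background-subtracted by that software. From them, log2 of the processed signal minus the array's 75th percentile over spots that are not controls was computed, spots of a probe were averaged, and 1 probe a gene, that with the highest mean, was kept. Of 41174 probes, 27484 were named through a RefSeq table of assembly GRCm38.p6, which also gave autosome, X or Y, and 13690 had no name there. Testing was limited to features that at least 1 of the groups compared held well above background on each of its arrays. Group means over all 12 arrays were fitted with limma 3.58.1 (R 4.3.3, lmFit and eBayes), with Benjamini-Hochberg adjustment per comparison and a threshold of 0.05; the spread of a feature is shared by all 4 groups. Sums of linear levels are over a list's members. Figures used matplotlib 3.10.9. Named genes were members of the gene lists, Kdm3a, and autosomal genes past the threshold in either sex comparison. The members and lists were chosen with earlier results of these data known. The scripts were tested on simulated data. Replicate numbers were checked, but the check cannot tell whether they pair embryos, and the main fit did not pair them. Normexp used the spot median signal, since the files used here hold no spot mean. Array number limits the precision. Alternatives tried are in the closing section. Some list members are counted but not reported here by name.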

Additional observations from a re-analysis of the deposited data

How the results depend on the processing

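Between the mutant sexes, 6 autosomal features were called. The count was 0 when probes had to be well above background in both sexes, 3 with no filter on dim probes, 0 with only the mutant arrays in the fit, 81 with array weights, 2 with the replicate block, 1 with slide as a fixed block, 0 with slide as a random block, 0 with array brightness as a covariate and 2 with a fold threshold of 1.2. It ran from 0 to 3 with each array left out. Normexp gave 6, split 2 higher and 4 lower. Between the control sexes, 12 were called, against 3 with only those arrays, 157 with array weights, 6 and 4 with slide as a fixed or random block, 7 with the fold threshold and 5 to 11 with each array left out. Quantile normalization gave 15, split 7 and 8. No sex difference was called as different between genotypes, against 7 with slide as a fixed block (2 higher, 5 lower). The 2 features called in both genotypes became 1 with quantile normalization, 12 with array weights, and 0 with either filter, only the groups compared, the replicate block, either slide block, brightness or the fold threshold, and 0 to 1 with an array left out. Deviations of same-numbered male and female arrays from their group means correlated at -0.203, -0.557 and -0.246 in mutants. In controls they correlated at 0.154, -0.112 and 0.375. Such correlations cannot tell whether same-numbered embryos were littermates, and the main fit did not pair them. No called value reversed. Star passed with array weights (adjusted p = 0.0284, limma), and Trim55 with normexp (0.0334) and array weights (0.00517). The causes of these moves were not tested.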
